A study of Mus musculus with 6 samples.

Results

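The genes described here handle oxygen and its by-products in skeletal muscle. They are myoglobin (Mb), the carbonic anhydrases Car3 and Car14, the hypoxia-inducible factor (HIF) subunits Hif1a, Epas1, Hif3a and Arnt, the prolyl hydroxylases Egln1 and Egln3, and Vhl. They were selected by symbol, under a rule that uses no measured value, although earlier results of these data were known at the time. They are 10 of the 51911 genes in the deposited count table. Bulk RNA sequencing was done on gastrocnemius, a hindlimb muscle, from male mice, with 3 libraries of HSA-PGC-1a3 transgenic muscle and 3 libraries of wild-type muscle. The transgene expresses PGC-1a3, a coactivator isoform made from Ppargc1a. HSA in its name stands for human skeletal actin, whose promoter works in muscle fibres. The labels give no age, founder line, treatment or number of animals per library, so the p-values measure only the spread between these libraries, which may be technical. The comparison asks how the transcriptome of this muscle differs when the isoform is overexpressed.

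Myoglobin is the haem protein of muscle fibres that stores oxygen and carries it to mitochondria. Carbonic anhydrases interconvert carbon dioxide with bicarbonate and protons, and so bear on how muscle disposes of carbon dioxide and acid. The HIF pathway is the cell's transcriptional response to low oxygen: Egln enzymes use oxygen to hydroxylate prolines of the HIF alpha subunits, Vhl then binds the hydroxylated subunit and targets it for degradation, and alpha subunits that escape this pair with Arnt and bind DNA. This control acts on protein, whereas the data below are RNA levels. Egln1, Egln3, Car9 and many genes of glycolysis are themselves known HIF targets.

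All 10 genes passed the filter on low counts, and 6 of them differed between genotypes at an adjusted p of at most 0.05 (edgeR quasi-likelihood test, Benjamini-Hochberg adjustment over 16593 genes). Hif1a and Vhl rose in the transgenic muscle, while Car14, Egln1, Epas1 and Arnt fell. Mb, Car3, Hif3a and Egln3 did not pass the test. Across all genes 50.7% passed, 25.5% higher and 25.2% lower, so 6 of 10 is near the share found in the transcriptome at large. The levels of the genotypes did not overlap for 7 of the 10, 3 higher and 4 lower, beside 59.6% of all genes (30.1% higher and 29.5% lower). The median log2 fold change (transgenic over wild type) of the 10 genes was -0.19, beside -0.02 for all genes tested.

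Levels are given in CPM, counts scaled to library size and here to TMM factors, which assume that most genes do not change. Total counts ran from 25532146 to 40846872 per library, and 3 counts correspond to 0.0804 to 0.134 CPM. Ppargc1a had at least 73513 counts in each transgenic library and at most 1809 in each wild-type library, in accord with every label. Scaling mattered for these genotypes: with library totals alone the median gene moved from -0.02 to 0.38 on the log2 scale, and 85.7% of calls were higher in the transgenic muscle, against 50.2% with TMM. A change of scaling shifts every gene by nearly the same amount. Each gene's difference from the median gene is therefore nearly the same under both, for example -0.67 for Egln1 and 0.47 for Hif1a. This follows from the arithmetic and is no check on either scaling. Fold changes below are TMM values, and each call or direction of the 10 genes that changes with library totals alone is named.

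**Figure D1:**
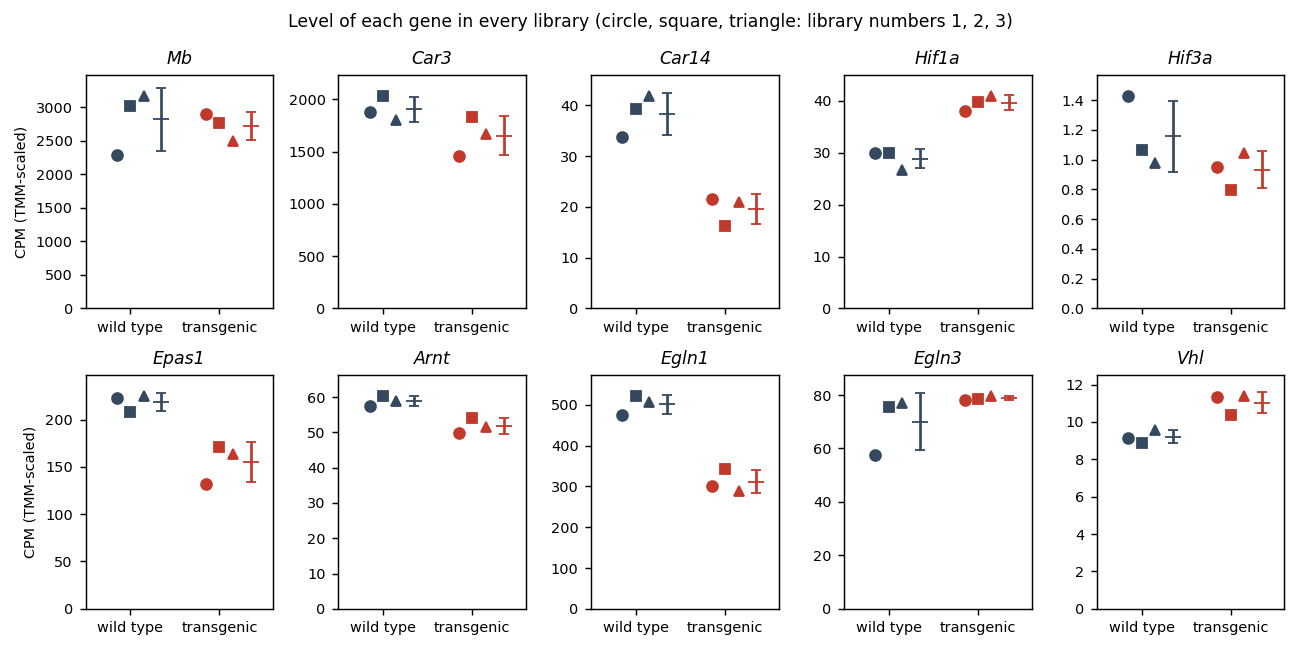
Level of each of the 10 genes in every library, in TMM-scaled CPM on axes that start at 0, for 3 wild-type and 3 transgenic libraries; horizontal marks and bars give the mean and SD. The genotypes do not overlap for Car14, Hif1a, Epas1, Arnt, Egln1, Egln3 and Vhl, and overlap for Mb, Car3 and Hif3a.

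The first genes concern the storage of oxygen and the handling of carbon dioxide. Myoglobin RNA did not differ detectably between the genotypes, the abundant muscle isoform Car3 was lower on average with overlapping libraries, and the membrane-bound isoform Car14 was lower in every transgenic library. Mb (chromosome 15, 77015487 to 77050670, minus strand, GRCm38) was at 2906, 2765 and 2501 CPM in transgenic libraries 1, 2 and 3, against 2290, 3011 and 3171 CPM in wild-type libraries 1, 2 and 3. Its log2 fold change was -0.05 (SE 0.12, adjusted p = 0.743, edgeR), and 2 SE to either side span -0.29 to 0.19. The lowest value of all 6 was that of wild-type library 1. Without that library the log2 fold change of Mb was -0.19 (edgeR adjusted p = 0.0673), and with library totals alone it was 0.34 (adjusted p = 0.0288), so neither its direction nor its call is fixed by these data. The gene model of Mb shares 412 of its 1492 exonic bases with Gm49540 and 64 with Apol6, both on the other strand, and the counting did not use strand.

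Car3, the cytosolic carbonic anhydrase that muscle and fat hold in large amounts, lies on chromosome 3 (14863512 to 14872523, plus strand). It stood at 1455, 1827 and 1669 CPM in the transgenic libraries, against 1875, 2034 and 1801 CPM in wild type. Transgenic library 2 lay above wild-type library 3, so the genotypes overlapped. The log2 fold change was -0.21 (SE 0.09, edgeR adjusted p = 0.0697). DESeq2 put Car3 past the threshold (log2 fold change -0.20, adjusted p = 0.0317), as did edgeR without transgenic library 2 (-0.26, adjusted p = 0.0338), and with library totals alone the difference was 0.19 (adjusted p = 0.0661). In each genotype Car3 was highest in the library numbered 2, and so was the summed CPM of 14 slow-fibre markers, at 1823, 3290 and 1544 in the transgenic and 1237, 2519 and 1100 in the wild-type libraries. The summed CPM of 15 adipocyte markers was 532, 359 and 400 against 1021, 466 and 438, highest in wild-type library 1. The part of either list in the Car3 values was not tested.

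Car14, a carbonic anhydrase of the plasma membrane whose active site faces outward (chromosome 3, 95897768 to 95904691, minus strand), was at 21.5, 16.3 and 21.0 CPM in the transgenic libraries. The wild-type libraries held 33.7, 39.3 and 41.9 CPM, all above every transgenic library. The mean fell from 38.3 ± 4.18 to 19.6 ± 2.89 CPM (SD, n = 3 each), a log2 fold change of -0.96 (SE 0.12, edgeR adjusted p = 1.16e-04) or 0.513 of the wild-type level. It was -0.57 with library totals alone (adjusted p = 0.00219), still past the threshold. Car14 shares 445 of its 2543 exonic bases with the antisense gene Aph1a, which itself fell by 0.37 on the log2 scale (SE 0.12, edgeR adjusted p = 0.0219), and reads over the shared bases count for both.

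The carbonic anhydrase family as a whole did not move one way. Of 16 family genes, Car3 and Car14 included, 11 were tested: 4 rose, 2 fell and 5 did not pass, with a median log2 fold change of 0.00. Apart from Car14, only Car8 fell, while Car2, Car9, Car11 and Car15 rose. Car11, a family member regarded as lacking catalytic activity, went from 7.15, 7.17 and 5.75 CPM in wild type to 16.1, 16.7 and 18.2 CPM in transgenic muscle, a log2 fold change of 1.34 (SE 0.10, edgeR adjusted p = 1.92e-06). Car2, the fast cytosolic isoform that red blood cells also carry, rose by 0.92 on the log2 scale (SE 0.12, adjusted p = 6.57e-05). The summed CPM of 11 erythroid markers was 106 to 108 in transgenic and 172 to 185 in wild-type muscle, and of the 7 tested, 4 fell with TMM and only Bpgm with library totals alone. Bpgm, which is also present in muscle, fell by 0.98 on the log2 scale, while the haemoglobin genes Hba-a1, Hba-a2 and Hbb-bs fell by 0.51, 0.53 and 0.38. The sum is therefore not a measure of red cells alone. The part of these markers in the Car2 value was not tested.

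Car9, a membrane isoform known as a HIF target, rose by 0.61 (SE 0.16, edgeR adjusted p = 0.00879) with 2.998 to 3.72 CPM in the transgenic libraries and no more than 2.30 CPM in any wild-type library. Car15 rose by 1.12 (SE 0.37, adjusted p = 0.0257) at no more than 1 CPM, a call DESeq2 did not make (adjusted p = 0.0638), so that DESeq2 counted 3 of the family higher and 3 lower, Car3 included. Car15 shares 1253 of its 1906 exonic bases with Gm20518 on the same strand, and Car9 shares 214 of its 2304 with Gm12454 on the other. Car8, another isoform without known catalytic activity, fell by 0.56 (SE 0.11, adjusted p = 0.00124), a call not made with library totals alone (-0.16, adjusted p = 0.222). Car4, Car5b, Car7 and Car13 did not pass the test, at log2 fold changes of -0.15, -0.42, 0.00 and 0.29, and Car4 was 0.24 with library totals alone, also without a call. Car6 had no count in any library, and Car1, Car5a, Car10 and Car12 were too low to test.

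A share within the family does not depend on how libraries are scaled. Car3 made up 94.7% ± 0.60 of the family's counts per kilobase of exonic length in transgenic and 95.6% ± 0.36 in wild-type muscle (SD, n = 3, two-sided exact permutation p = 0.2), and the ranges overlapped. The share of Car14 was 1.57%, 0.957% and 1.35% against 1.94%, 2.08% and 2.49%, without overlap (exact permutation p = 0.1, the smallest that 3 against 3 can give). Car2 and Car11 went the other way, from 0.592% ± 0.03 to 1.29% ± 0.16 and from 0.499% ± 0.05 to 1.46% ± 0.15 (SD, n = 3, exact permutation p = 0.1 each). In wild-type muscle Car14 was the second most abundant isoform by this measure, whereas in transgenic muscle Car11 was higher than Car14 in 2 of 3 libraries.

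**Figure D2:**
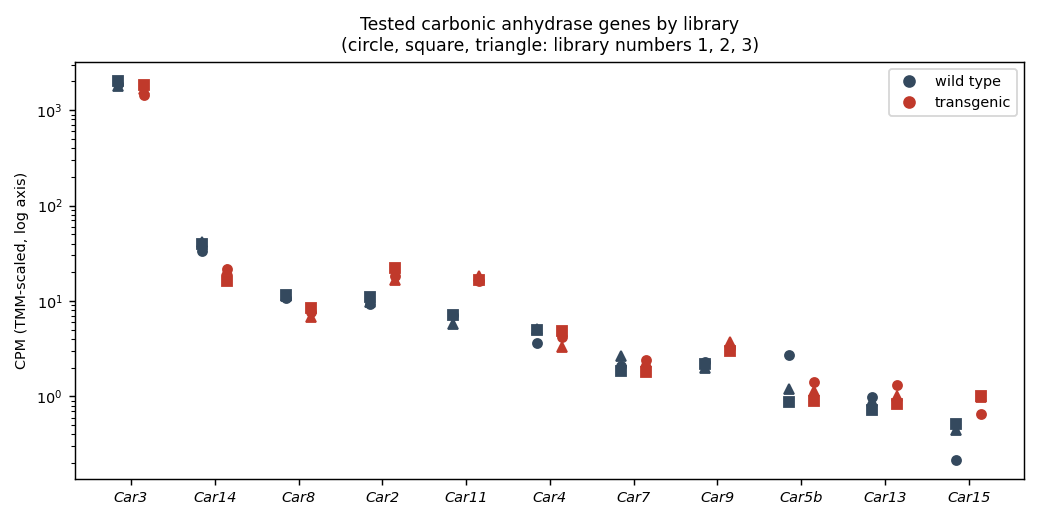
TMM-scaled CPM (log axis) of the 11 tested carbonic anhydrase genes in each of 3 wild-type and 3 transgenic libraries, ordered by wild-type mean. Car14 and Car8 are lower and Car2, Car11, Car9 and Car15 higher in all transgenic libraries, while Car3 overlaps.

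Of the 6 tested globin genes, Mb included, 3 fell with TMM scaling and none rose. Hba-a1 was lower by 0.51 and Hba-a2 by 0.53 on the log2 scale, and Hbb-bs by 0.38 (edgeR adjusted p = 0.00303, 0.0136 and 0.00416). Hba-a1 and Hba-a2 are near-identical copies, as are Hbb-bs and Hbb-bt, so counts between them are uncertain, and none of the 3 was called with library totals alone. Cygb, the globin of connective tissue cells, did not pass (log2 fold change -0.05, adjusted p = 0.605), and was called higher with library totals alone (0.34, adjusted p = 0.00185). Hbb-bt did not pass either (-0.33, adjusted p = 0.0590).

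The HIF subunits come next. Among the oxygen-regulated alpha subunits, Hif1a rose and Epas1 (HIF-2alpha) fell, and the common partner Arnt fell slightly. Hif1a (chromosome 12, 73901375 to 73947530, plus strand) was at 38.1, 39.8 and 40.99 CPM in the transgenic and 30.0, 29.9 and 26.7 CPM in the wild-type libraries. Every transgenic value was above every wild-type value. The log2 fold change was 0.46 (SE 0.07, edgeR adjusted p = 2.00e-04), or 1.37-fold, and it was 0.85 with library totals alone (adjusted p = 1.13e-06). Hif1a overlaps Gm15283 over 330 and Gm49321 over 148 of its 5896 exonic bases, and reads over the shared bases count for both genes. Gm15283 itself rose by 0.54 on the log2 scale (SE 0.15, edgeR adjusted p = 0.00882). Gm49321 did not pass (0.35, SE 0.17, adjusted p = 0.104).

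Epas1, the alpha subunit known for its high level in endothelial cells (chromosome 17, 86753700 to 86833410, plus strand), was at 131, 171 and 163 CPM in the transgenic libraries. The wild-type libraries held 223, 208 and 225 CPM, and transgenic library 1 was the lowest of the 6. The log2 fold change was -0.49 (SE 0.09, edgeR adjusted p = 0.00137), and it was past the threshold without any single library, from -0.54 to -0.37. With library totals alone it was -0.10 (adjusted p = 0.407), so this call rests on the scaling. All 15 endothelial markers also passed the test lower with TMM, with a median log2 fold change of -0.36 and a summed level of 575 to 608 CPM against 749 to 794 CPM, while none was at 0. With library totals alone 1 of the 15, Vwf, was called lower. All 11 smooth muscle and pericyte markers passed lower too with TMM, at a summed 681 to 748 CPM against 1072 to 1158 CPM. Of these 11, library totals alone called 5 lower. In bulk muscle, fewer cells of a type and less RNA per cell cannot be told apart, and the part of these cells in the Epas1 difference was not tested.

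Hif3a, an alpha subunit with splice forms that oppose the other two, was the least abundant of the 10, with 29, 24 and 39 counts in the transgenic and 33, 37 and 22 counts in the wild-type libraries (chromosome 7, 17031507 to 17062427, minus strand). Its log2 fold change of -0.30 (SE 0.27, edgeR adjusted p = 0.369) had a span of -0.83 to 0.23 at 2 SE, and was 0.09 with library totals alone.

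Arnt, the constitutive beta subunit (chromosome 3, 95434388 to 95497240, plus strand), was at 49.8, 54.2 and 51.5 CPM in the transgenic and 57.4, 60.3 and 58.8 CPM in the wild-type libraries. The groups did not overlap, but the difference was small, with a log2 fold change of -0.18 (SE 0.06, edgeR adjusted p = 0.0195). The call was lost without transgenic library 1 (-0.13, adjusted p = 0.109), transgenic library 3 (-0.17, adjusted p = 0.0562) or wild-type library 2 (-0.17, adjusted p = 0.0516). With library totals alone Arnt was higher, at 0.21 (adjusted p = 0.00502). Its paralogue Arnt2 fell by 1.04 (SE 0.19, edgeR adjusted p = 7.27e-04), from between 3.88 and 5.24 CPM down to between 1.70 and 2.49 CPM, under either scaling. Of the 7 tested genes of this protein family, Hif1a was the 1 that rose and 3 fell. Ahr, the dioxin receptor that shares Arnt, and Sim2 did not pass (log2 fold changes -0.42 and -0.22, adjusted p = 0.0507 and 0.0827), and with library totals alone they were -0.02 and 0.18, also without a call.

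Within the alpha subunits the composition moved from Epas1 towards Hif1a in every transgenic library. Hif1a was 21.4%, 18.1% and 19.1% of the summed alpha-subunit counts per kilobase in the transgenic libraries, against 11.3%, 11.95% and 10.1% in wild type. The means were 19.5% ± 1.73 and 11.1% ± 0.94 (SD, n = 3, two-sided exact permutation p = 0.1, the smallest possible). Epas1 stayed the main subunit, at 80.0% ± 1.80 against 88.5% ± 0.97, while Hif3a was at 0.406% ± 0.08 and 0.390% ± 0.07 (exact permutation p = 0.9). Put as a ratio, a measure chosen after the values were seen, Epas1 exceeded Hif1a 4.12 ± 0.45 times per kilobase in transgenic and 8.02 ± 0.78 times in wild-type muscle (SD, n = 3).

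The Hif1a promoter holds the core letters that HIF and other basic helix-loop-helix factors bind. The search covered the 250 bases before each RefSeq start (GRCm38.p6) for ACGTG or GCGTG on either strand, and 38.6% of 32851 promoters of that length held at least 1 match. Promoter entries were found for 8 of the 10 genes, not for Car3 and Epas1. Hif1a had 3 matches, 2 of them both strands of a palindrome. The first line shows the palindrome, whose first matched base is 135 bases before the start, and the second the match at 70 bases before the start. Each has 1 match in capitals with 10 bases on each side (plus strand, 5′ to 3′). In the first line the last base of the palindrome, a G, follows the capitals in lower case.
Hif1a chr12:73907722-73907746: cacagacaagCACGTgagcggggca
Hif1a chr12:73907787-73907811: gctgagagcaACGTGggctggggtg
Arnt and Car14 had 1 match each and Hif3a had 2, while Vhl and the 3 Mb promoters had none in these windows. A match describes the letters and shows no binding.

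The oxygen sensors differed among themselves. Egln1 (PHD2), held to be the main HIF prolyl hydroxylase at normal oxygen, fell in the transgenic muscle, and Egln3 (PHD3) did not pass the test although its CPM did not overlap. Egln1 (chromosome 8, 124908587 to 124949324, minus strand) was at 302, 343 and 289 CPM in the transgenic and 476, 522 and 507 CPM in the wild-type libraries. The lowest wild-type value was well above the highest transgenic one. The mean fell from 501 ± 23.5 to 311 ± 28.3 CPM (SD, n = 3 each), a log2 fold change of -0.69 (SE 0.07, edgeR adjusted p = 2.10e-05) or 0.621 of the wild-type level. With library totals alone it was -0.29 (adjusted p = 0.00395), again past the threshold.

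Egln3 (chromosome 12, 54178981 to 54203860, minus strand) was at 78.0, 78.7 and 79.6 CPM in the transgenic and 57.7, 75.4 and 77.0 CPM in the wild-type libraries. The transgenic values lay close together, just above wild-type libraries 2 and 3, with wild-type library 1 far lower. The log2 fold change was 0.17 (SE 0.10, edgeR adjusted p = 0.186), and 0.04 without wild-type library 1 (adjusted p = 0.586). It was 0.57 with library totals alone (adjusted p = 5.38e-04).

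Egln2 (PHD1), the third prolyl hydroxylase, fell by 0.44 (SE 0.06, edgeR adjusted p = 1.54e-04), from between 118 and 134 CPM down to between 89.3 and 96.5 CPM, and was not called with library totals alone (-0.04, adjusted p = 0.540). Hif1an, the asparagine hydroxylase that blocks coactivator binding by HIF alpha, and P4htm, a membrane-bound prolyl hydroxylase, did not pass (log2 fold changes -0.09 and 0.14, adjusted p = 0.186 and 0.453), and both were called higher with library totals alone (0.30 and 0.53, adjusted p = 2.92e-04 and 0.00626).

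Among the 3 Egln genes, the share of Egln1 was 57.6%, 59.8% and 56.5% of counts per kilobase in the transgenic and 67.5%, 65.6% and 65.9% in the wild-type libraries, without overlap. The share of Egln3 was 20.1%, 18.5% and 21.0% against 11.1%, 12.8% and 13.5%, also without overlap (two-sided exact permutation p = 0.1 for both, the smallest possible). Egln2 kept between 20.6% and 22.5% in all 6 libraries, with overlap between the genotypes (exact permutation p = 0.2). Egln3 thus took a larger part of the family RNA in transgenic muscle although its own level did not pass the test. The ratio of Egln1 to Egln3 per kilobase, chosen after the values were seen, was 2.93 ± 0.28 in transgenic and 5.37 ± 0.65 in wild-type muscle (SD, n = 3).

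**Figure D3:**
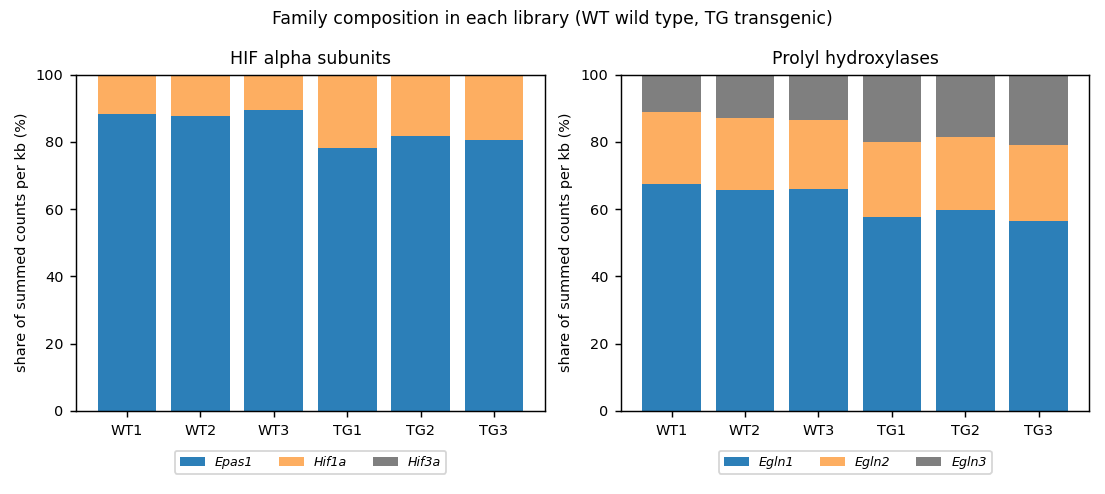
Share of each gene in the summed counts per kilobase of the HIF alpha subunits (left) and of the Egln prolyl hydroxylases (right), one bar per library. Hif1a takes 18.1% to 21.4% in the transgenic and 10.1% to 11.95% in the wild-type bars, Egln3 takes 18.5% to 21.0% and 11.1% to 13.5%, and Hif3a is too small to see.

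Both hydroxylases held core matches before their RefSeq starts, shown because these genes are known HIF targets that differed in share in opposite directions. All are on the minus strand, 5′ to 3′, with the match in capitals and 10 bases on each side. The first matched base is 68 and 126 bases before the start in Egln1 and 229 bases before it in Egln3.
Egln1 chr8:124949308-124949332: gccgtggtgtACGTGcagcgcgcgc
Egln1 chr8:124949366-124949390: ccggcccgccGCGTGcgcgcggccc
Egln3 chr12:54204089-54204113: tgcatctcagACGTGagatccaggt
The letters ACGTG occurred in 16.6% and GCGTG in 28.2% of all such windows. The window of Egln1 is 86.0% G and C, and that of Egln3 is 50.8%.

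Vhl, the substrate-binding subunit of the ubiquitin ligase that marks hydroxylated HIF alpha (chromosome 6, 113623959 to 113631633, plus strand), was at 11.3, 10.4 and 11.4 CPM in the transgenic and 9.14, 8.90 and 9.58 CPM in the wild-type libraries. The genotypes did not overlap, and the log2 fold change was 0.26 (SE 0.09, edgeR adjusted p = 0.0281). DESeq2 did not make this call (adjusted p = 0.0936), nor did edgeR without transgenic library 1 or 3 or wild-type library 1 or 2 (adjusted p = 0.0626, 0.0745, 0.0708 and 0.0926), though the value stayed between 0.23 and 0.33 when single libraries were left out.

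Of 19 tested genes for the subunits of this ligase and other factors in HIF turnover, Vhl included, 8 rose and 2 fell, with a median log2 fold change of 0.15 beside -0.02 for all genes. Eloc and Rbx1, which sit in the same ligase, rose by 0.53 and 0.37 (SE 0.08 and 0.07, edgeR adjusted p = 1.66e-04 and 0.00129), while Elob and Cul2 did not pass, at 0.07 and 0.10. Usp20, a deubiquitinase reported to act on HIF-1alpha, had the largest change on the list, at 1.55 (SE 0.09, adjusted p = 2.01e-07), from between 14.3 and 17.5 CPM up to between 43.3 and 46.3 CPM. Stub1, a chaperone-linked ubiquitin ligase, rose by 0.56 and Os9 by 0.61 (adjusted p = 7.92e-06 and 1.21e-04). Stub1 shares 1084 of its 2561 exonic bases with Jmjd8 on the other strand, and reads over the shared bases count for both. Ube2d1, a ubiquitin-conjugating enzyme, fell by 0.76 (SE 0.07, adjusted p = 9.62e-06) and Ube2d3 by 0.23 (adjusted p = 0.00704), although Ube2d3 was higher with library totals alone. Siah1b and Hsp90aa1 rose by 1.05 and 0.76 (edgeR adjusted p = 1.36e-04 and 0.00159). Siah1a, Siah2, Usp33, Rack1, Wsb1, Hsp90ab1 and Ube2d2a did not pass, with log2 fold changes from -0.19 to 0.24. Library totals alone called 18 of the 19 higher and Ube2d1 lower.

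**Figure D4:**
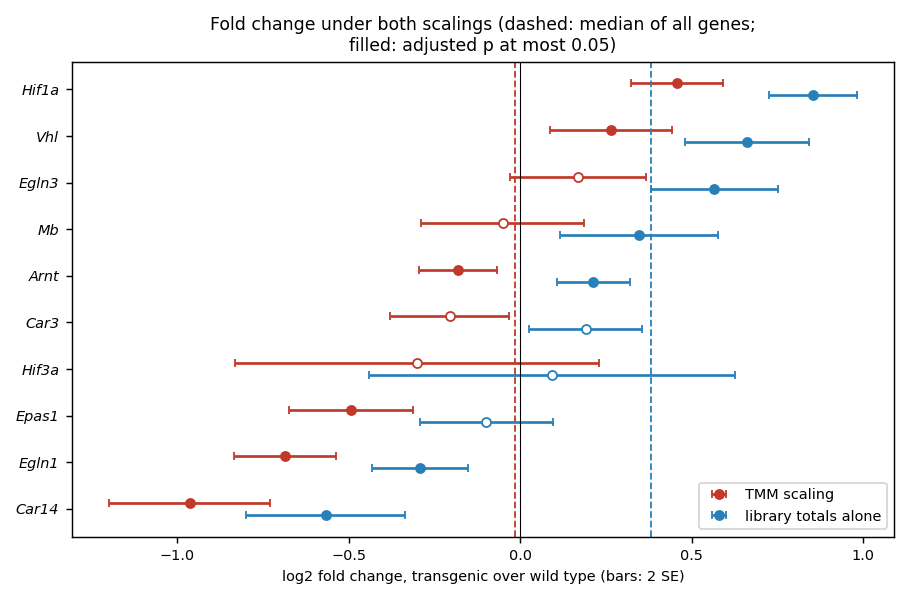
Log2 fold change (transgenic over wild type, bars 2 SE) of the 10 genes with TMM scaling and with library totals alone; filled points have an adjusted p of at most 0.05 and dashed lines mark the median of all genes, -0.02 and 0.38. The scalings differ by a nearly constant shift, which by construction leaves the order of the genes unchanged. Mb, Car3, Arnt and Hif3a change sign.

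The genes that act with or downstream of HIF were read from lists of known targets. Of 20 tested targets in glycolysis and glucose uptake, 14 fell and 3 rose, with a median log2 fold change of -0.73 (10 lower and 5 higher with library totals alone). Ldha, lactate dehydrogenase A, fell by 1.63 (SE 0.06, edgeR adjusted p = 2.48e-08), from between 1871 and 1946 CPM down to between 587 and 634 CPM. Gpi1, the second enzyme of glycolysis, fell by 1.58 and Gapdh by 1.13 (adjusted p = 3.14e-08 and 5.22e-08), though Gapdh has many processed copies in the genome and its counts are uncertain. Slc16a3, the lactate exporter MCT4, fell by 1.85 (SE 0.08, adjusted p = 5.04e-08). The risers on this list were Hk1, Pfkl and Aldoc, at 1.003, 1.06 and 0.89, which are forms of glycolytic enzymes that other tissues favour over fast muscle. DESeq2 did not call Aldoc (adjusted p = 0.0574). Over the same libraries 12 of 14 fast-fibre markers fell, with a summed level of 91638 to 93541 CPM against 178577 to 190458 CPM, and the part of fibre type in the target list was not tested.

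The 40 tested targets outside glycolysis were mixed. With TMM scaling 15 fell, 3 rose and 22 did not pass, with a median of -0.29, whereas library totals alone gave 4 lower and 15 higher. Egln1, described above, is on this list and among the genes that fell. Ppp1r3c, a glycogen-targeting phosphatase subunit, fell by 1.32 (SE 0.09, edgeR adjusted p = 1.64e-06). Bnip3, a mitophagy receptor, fell by 0.82 (SE 0.07, adjusted p = 2.99e-06), and both calls were also made with library totals alone. Mxi1, a MYC antagonist, fell by 0.44 (adjusted p = 9.23e-05), a call not made with library totals alone. The 3 that rose were Car9, the collagen lysyl hydroxylase Plod1 (0.26, adjusted p = 0.00416) and the histone demethylase Kdm3a (0.33, adjusted p = 0.00269). Vegfa, the angiogenic growth factor, named after its value was seen, did not pass (log2 fold change 0.05, SE 0.09, adjusted p = 0.684), and was called higher with library totals alone (0.44, adjusted p = 0.00140).

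Of 13 tested coactivators and modulators of HIF, 5 fell and 2 rose with TMM scaling, where 50.7% of all genes were called. Library totals alone gave 3 lower and 6 higher. Pkm, pyruvate kinase, whose M2 form is reported to bind HIF-1alpha, fell by 1.08 (SE 0.06, edgeR adjusted p = 2.29e-07), and gene counts do not separate its M1 and M2 forms. The steroid receptor coactivator Ncoa1 fell by 0.64 and Cited4, which competes for the coactivators of HIF, by 0.95 (adjusted p = 3.50e-06 and 4.05e-05). Sirt6, a deacetylase known to repress HIF-1 targets, rose by 1.17 (SE 0.13, adjusted p = 2.77e-05). These 4 calls were made under either scaling.

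Proton and bicarbonate transporters, which work with carbonic anhydrases, held some of the largest differences. Of 13 tested, 7 fell and 3 rose (3 and 5 with library totals alone). Slc4a4, a sodium bicarbonate cotransporter, fell by 2.03 (SE 0.11, edgeR adjusted p = 2.28e-07), from between 31.9 and 35.9 CPM down to between 7.21 and 9.89 CPM. Slc4a10, a related transporter, had 6, 3 and 0 counts in the transgenic and 47, 62 and 49 in the wild-type libraries, 21.4 times more in wild type after scaling (95% exact interval 11.0 to 47.6, counting error only). Emb, a chaperone of lactate transporters, rose by 1.93 (SE 0.22, adjusted p = 4.08e-05).

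**Figure D5:**
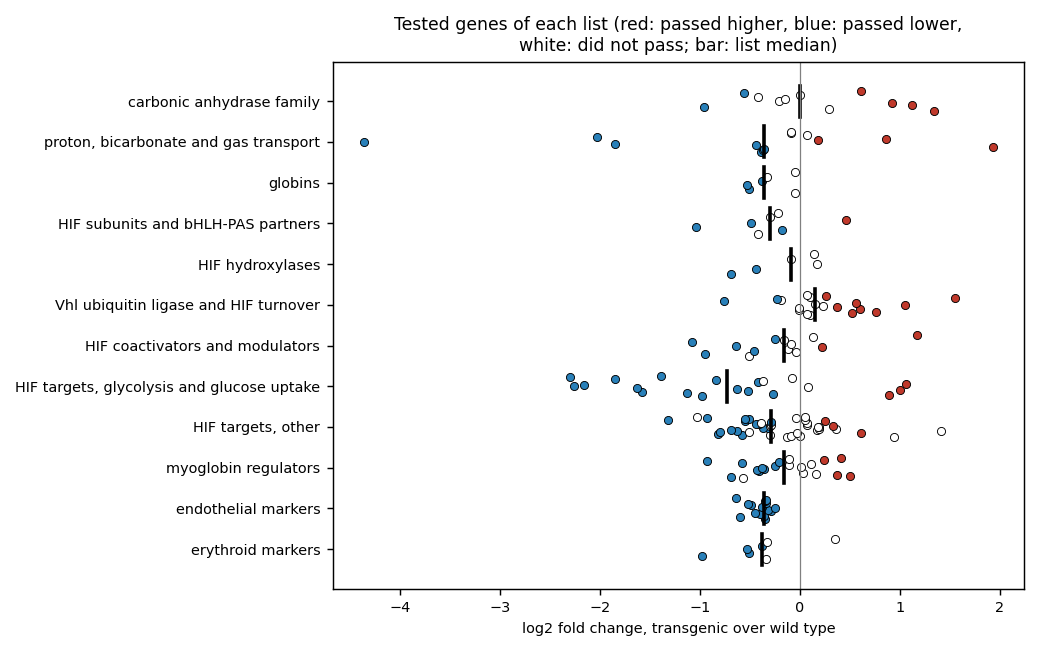
Log2 fold change of every tested gene on 12 lists, with TMM scaling; red points passed higher, blue lower, white did not pass, and the bar is the list median. The glycolytic HIF targets have a median of -0.73 and the HIF turnover genes 0.15, while the carbonic anhydrases lie on both sides of 0.

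Known regulators of the Mb gene were also mixed while Mb itself did not pass. Of 20 tested, 9 fell and 4 rose, with a median of -0.16 (3 and 11 with library totals alone). Prkaa2, a catalytic subunit of AMP-activated kinase, fell by 0.93 (SE 0.06, edgeR adjusted p = 3.66e-07). Ppp3cb, a catalytic subunit of calcineurin, fell by 0.58 and the nuclear receptor Esrra by 0.69 (adjusted p = 2.76e-05 and 2.95e-05), calls that the other scaling also made. Nfatc1, a calcineurin-activated factor, fell by 0.43 (adjusted p = 8.14e-05), but not with library totals alone.

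Compared per kilobase of exonic length, the 10 genes covered a wide range in wild-type muscle. Mb was highest at 1893 ± 315 CPM per kilobase, followed by Car3 at 664 ± 41.6, Egln1 at 139 ± 6.55, Epas1 at 39.1 ± 1.66 and Egln3 at 26.3 ± 4.02 (SD, n = 3). Car14 was at 15.1 ± 1.64, Arnt at 7.35 ± 0.18, Hif1a at 4.90 ± 0.31, Vhl at 3.07 ± 0.12 and Hif3a at 0.173 ± 0.04. In transgenic muscle Egln3 (29.6 ± 0.30) and Epas1 (27.8 ± 3.72) no longer differed beyond their spread. Car14 (7.72 ± 1.14), Hif1a (6.72 ± 0.25) and Arnt (6.48 ± 0.28) lay closer together than in wild type. Car14 was above the other 2 in transgenic libraries 1 and 3 and below them in transgenic library 2.

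For each gene past the threshold, the 2 genes with the most similar profile were those with the smallest root mean square difference in centred log2 CPM over the 6 libraries, among 10499 genes with a mean of at least 5 CPM. Most like Egln1 were Dusp13 and Fam129a (0.025 and 0.036), and most like Hif1a were Cops2 and Scrn3 (0.021 and 0.026). Slf1 and Zscan29 were nearest to Epas1 (0.027 and 0.038). D830039M14Rik and Zfp593 were nearest to Car14 (0.056 and 0.075). Rbl2 and Atad2b were nearest to Arnt (0.018 and 0.018), and Aqr and Zfp263 to Vhl (0.014 and 0.022).

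The authors' deposited table, restricted by p-value and fold, lists 3614 genes, of which 2 are among the 10. In that table Car14 has a log2 fold change of -1.042 (adjusted p = 3.23e-17) and Egln1 one of -0.683 (adjusted p = 1.42e-17), the same direction as the edgeR values here. Its smallest absolute log2 fold change is 0.585, and no gene of the 10 with a smaller edgeR difference is listed.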

How the data were processed

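Trizol RNA from frozen gastrocnemius was sequenced from Illumina libraries, per the labels' protocols. Per the submitters' processing notes, the authors used STAR 2.5.0a for alignment to GRCm38.p6, featureCounts 2.0.0 for counting and DESeq2, its version not stated, to compare genotypes. The deposited values are raw counts per gene, made without strand and with fragments counted for every gene they overlap, per the file headers. The authors' deposited table gives log2 fold changes and p-values for selected genes.

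Symbols and exonic lengths came from the GENCODE M21 annotation of GRCm38, promoters from RefSeq. With R 4.3.3, low genes were removed with filterByExpr, and the rest scaled by TMM and tested with edgeR 4.0.16 (robust quasi-likelihood F test, genotype as sole term, all 6 libraries), with Benjamini-Hochberg adjustment over all genes and a threshold of 0.05. The biological coefficient of variation was 10.7%. Shares used counts per kilobase and exact permutation tests. Alternatives were DESeq2 1.42.0, library totals alone, upper-quartile factors, 2 other filters, limma-voom (limma 3.58.1), no robust estimation, a replicate block, no mitochondrially encoded genes, and libraries left out singly or by number. Named genes were the 10, up to 4 called genes per list by smallest p, every tested gene of the carbonic anhydrase, globin, HIF subunit, hydroxylase and Vhl lists, and the 2 nearest profiles. Hk1, Pfkl, Aldoc, Plod1, Kdm3a and Vegfa were named with their values in view. Although the rule names symbols only, the 10 genes and the 19 lists beside them were chosen with earlier results of these data known.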

Additional observations from a re-analysis of the deposited data

How the results depend on the processing

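Each of the 10 genes was refitted under 18 alternatives. Car14, Hif1a and Egln1 kept direction and call in all of them, and the number of genes called among the 10 ran from 4 to 7. With library totals alone the log2 fold changes were 0.345 for Mb, 0.191 for Car3, 0.0927 for Hif3a and 0.213 for Arnt, all reversed, -0.0994 for Epas1, no longer called, and 0.565 for Egln3, now called. DESeq2 called Car3 (-0.202) and not Vhl (0.269). Without a filter on low counts Arnt (-0.144) was not called and Egln3 (0.208) was. With 1 library left out, log2 fold changes ran from -0.190 to 0.0326 for Mb, -0.260 to -0.101 for Car3, -0.207 to -0.133 for Arnt and 0.233 to 0.330 for Vhl. Mb turned positive without transgenic library 3 (0.0172) or wild-type library 3 (0.0326). With both libraries of a number left out, Mb was 0.112 without those numbered 3, Arnt was -0.171 without those numbered 1 and -0.166 without those numbered 3, and Vhl was 0.243, 0.280 and 0.283 without those numbered 1, 2 and 3, with neither Arnt nor Vhl called. The cause of these changes was not tested. The genotype differences in the shares of Car3, Car14, the HIF alpha subunits and the Egln genes were recomputed without each library in turn and without division by exonic length. Each moved by less than 1 SD, and that of Hif3a crossed 0 (-0.0167 to 0.0599 percentage points).

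Same-numbered libraries had correlations of 0.101, -0.0884 and -0.210 in their deviations from the genotype means, and differently numbered ones from -0.191 to 0.246. The labels do not say whether the numbers pair the libraries, and correlations over so few libraries cannot settle it. With a replicate block 6 of the 10 genes were called, 2 higher and 4 lower, as without it, and 8331 genes in all against 8419. The block gave 10 called slow-fibre markers of 14 against 4. Depth limits Hif3a, whose counts were at most 39 in a library, and Slc4a10 in transgenic muscle.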

Other observations

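Markers of other cell types and of fibre type were measured in the same libraries. Of 14 fast-fibre markers the strongest by p were Myoz1, Pvalb, Tnni2 and Tnnt3, which fell by 1.73, 1.42, 1.27 and 1.18 on the log2 scale with TMM (edgeR adjusted p = 3.87e-08, 1.05e-07, 1.68e-07 and 1.95e-07), also with library totals alone. Of 14 slow-fibre markers, Myl6b and Pln rose by 1.95 and 1.54 and Myoz2 and Ankrd2 fell by 1.24 and 1.05 (edgeR adjusted p = 1.52e-06, 8.86e-05, 0.00141 and 0.0113). The other 10 did not pass.

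Among 14 macrophage markers, Cd68 and Lgals3 rose by 1.40 and 1.86 (edgeR adjusted p = 1.27e-04 and 0.00106) and 12 did not pass. Among 10 Schwann and nerve markers 1 passed, Ncam1, at 0.49 (edgeR adjusted p = 0.0125). Ncam1 is also made by muscle fibres. Of 15 adipocyte markers, Cidea rose by 1.21 and Fabp4, Thrsp and Plin4 fell by 0.50, 0.66 and 0.21 (edgeR adjusted p = 0.00955, 6.83e-04, 0.00345 and 0.0442), though none of these 3 was called lower with library totals alone. Of 10 fibroblast markers 5 fell and none rose with TMM, while library totals alone gave 3 higher and none lower. Of 7 tested erythroid markers 4 fell with TMM and 1 with library totals alone, Bpgm, which makes the red cell's regulator of haemoglobin oxygen affinity and is also present in muscle (log2 fold change -0.98, SE 0.06, edgeR adjusted p = 2.10e-07).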
